A study of Bos grunniens with 18 samples.

Results

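The regulators of G-protein signaling (RGS) are a family of proteins, and 8 of their genes, *RGS1*, *RGS2*, *RGS3*, *RGS10*, *RGS14*, *RGS16*, *RGS18* and *RGS19*, were followed in the whole blood of yaks (*Bos grunniens*). They were taken by name from a table of 20607 genes, which also holds 9 other RGS genes. Each member matched 1 gene identifier. The members were chosen by gene name, but with the stage levels of these same libraries already known, and *RGS1* was also among the hub genes that the study picked on these samples. The stage comparisons of the members are therefore descriptions, and an adjusted p beside them is a property of the fit over the whole table and not independent evidence.

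The blood came from adult female yaks aged 4 to 8 years and was sequenced at 3 reproductive stages: the anestrus period (Y-A group), the estrus period (Y-E group) and the pregnancy period (Y-P group). Each group held 6 libraries. Blood of 6 cows was tracked through the stages. Estrus was synchronized with a progesterone pessary, PGF2α and GnRH, and the cows were then inseminated. The methods and labels do not give the day of pregnancy, and they do not say whether equal replicate numbers mark the same cow. No genotype or strain is given.

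An activated receptor of the G protein-coupled class loads GTP onto a G protein alpha subunit, which then signals until the GTP is hydrolysed. RGS proteins bind the active alpha subunit and speed that hydrolysis, so they shorten signals from chemokine, hormone and neurotransmitter receptors. In blood, such receptors guide leukocyte migration and platelet activation, and several RGS proteins are known brakes on them.

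Total counts per library ranged from 30247267 to 48401076. Levels are given as CPM, the deposited counts scaled to the library size with TMM factors. Where genes are set against each other, the deposited FPKM values are used, because FPKM is also scaled by gene length. Y-E replicate 6 stood apart: hemoglobin genes took 8.36% of its counts, against 0.0899% to 0.713% in the other Y-E libraries, 3.10% to 16.7% in Y-A and 0.0272% to 0.376% in Y-P. The study's own listing of sequencing output holds no entry for it. The members' log2 fold changes that involve Y-E are therefore also given over 17 libraries, without it. A total of 14508 genes, including all 8 members, passed the low-count filter and were tested. In bulk blood, fewer cells of a type and less RNA per cell cannot be told apart.

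The members fall into 3 structural subfamilies. *RGS1*, *RGS2*, *RGS3*, *RGS16* and *RGS18* belong to the R4 subfamily, *RGS10* and *RGS14* to R12, and *RGS19* to RZ. In the deposited annotation, 6 members carry the term GTPase activator activity, which 129 genes of the table share, while *RGS19* carries 0 terms. *RGS2* is placed in the oxytocin and cGMP-PKG signaling pathways, *RGS3* in axon guidance and *RGS14* in Rap1 signaling. Several members are neighbours: the 805596 bases of chromosome 14 from the start of *RGS2* (chromosome 14, 6072726 to 6076720, minus strand) to the end of *RGS18* (6842746 to 6878321, minus strand) hold 6 genes of the table, of which 5 are RGS genes. *RGS1* (6370217 to 6398322, minus strand) lies between them. The other RGS genes in this stretch are *RGS13* and *RGS21*, whose highest counts in any library were 10 and 1. *RGS16* lies elsewhere on chromosome 14 (63269432 to 63273280, minus strand). *RGS3* is on chromosome 7 (40972336 to 41139595, plus strand), *RGS10* on chromosome 25 (43073114 to 43117848, minus strand), *RGS14* on chromosome 8 (41980626 to 41995702, plus strand) and *RGS19* on chromosome 12 (46654431 to 46657503, plus strand). The coordinates are those of the deposited table, and no member overlaps another gene of the table.

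*RGS2*, which acts mainly on alpha subunits of the Gq class, was the most abundant RGS transcript of yak blood in every library. Its FPKM was 587 ± 203 (mean ± SD, n = 18 libraries), above the next member, *RGS19*, in 18 of 18 libraries. *RGS19* at 96.2 ± 20.0, *RGS18* at 90.5 ± 30.1 and *RGS14* at 75.7 ± 13.7 FPKM followed. Neighbours in this middle group did not differ beyond their spread: *RGS19* exceeded *RGS18* in 10 of 18 libraries, and *RGS18* exceeded *RGS14* in 12 of 18. *RGS10* at 34.9 ± 7.53 FPKM was below *RGS14* and above *RGS3* in all 18 libraries. *RGS3* had 15.1 ± 2.40 FPKM and *RGS1* 12.6 ± 22.0, and their order turned with the library: *RGS3* was higher in 16 of 18, with both exceptions in Y-P. *RGS16* was near the limit of detection at 0.422 ± 0.314 FPKM.

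*RGS2* made up 53.5% to 71.9% of the summed FPKM of all RGS genes in the table. By stage, its median share was 60.9% (Y-A), 63.3% (Y-E) and 58.5% (Y-P). *RGS1* contributed a median of 0.407% during anestrus and 0.366% during estrus. It contributed 1.54% in Y-P, where its share reached 5.42% in replicate 2 and 4.78% in replicate 6. The summed RGS FPKM had medians of 786, 986 and 925 at anestrus, estrus and pregnancy, with overlapping ranges of 630 to 915, 807 to 1169 and 682 to 1706.

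**Figure D1:**
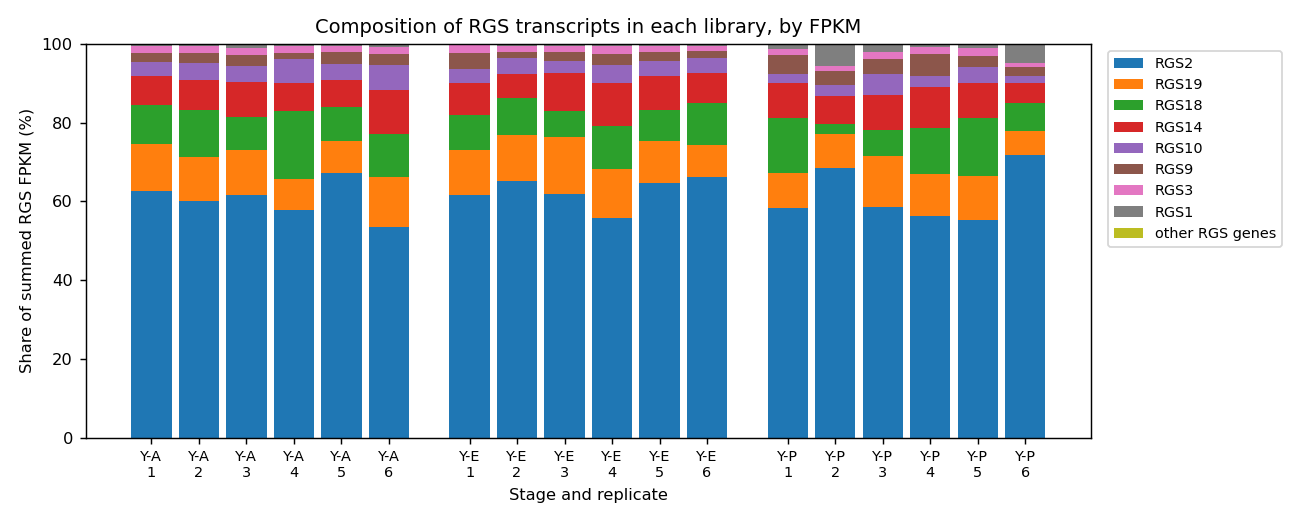
Share of each RGS gene in the summed RGS FPKM (percent, y axis) of every library (x axis, stage and replicate), as stacked bars. *RGS2* fills more than every other gene in each bar, from 53.5% to 71.9%, and the *RGS1* segment is widest in Y-P replicates 2 and 6, at 5.42% and 4.78%.

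Across stages, *RGS1* was the member that differed most, and it was higher in pregnancy. *RGS19* was lower in pregnancy than in estrus by a smaller margin, and no member passed the test between estrus and anestrus. Passing the test means an adjusted p under 0.05 in edgeR's quasi-likelihood test, with Benjamini-Hochberg adjustment over all 14508 genes. Between estrus and anestrus, 0 of 8 members passed, against a background of 0.0207% of all tested genes, and against 0.0138% where a log2 difference of 1 or more in either direction was also asked for. At an unadjusted p under 0.05, edgeR listed 3 members there (*RGS3*, *RGS14* and *RGS19*) and 900 genes in all, and DESeq2 also called 0 members after adjustment. Between pregnancy and anestrus, 1 of 8 members (*RGS1*) passed, against 5.83% of all genes, and the same gene passed the fold threshold, against 1.43%. Between pregnancy and estrus, 2 of 8 members (*RGS1* and *RGS19*) passed, against 14.4%, and *RGS1* alone also reached the fold threshold, against 2.67%. The counts of members were the same over 17 libraries. With 8 members the share moves in steps of a whole gene, and these counts are not a result about the family.

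The median log2 fold change of the members was 0.33 between estrus and anestrus, 0.11 between pregnancy and anestrus and −0.18 between pregnancy and estrus. The medians over all tested genes were −0.01, 0.03 and 0.04. The plot of log2 fold changes shows both the single large value and the small shifts of the rest.

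**Figure D2:**
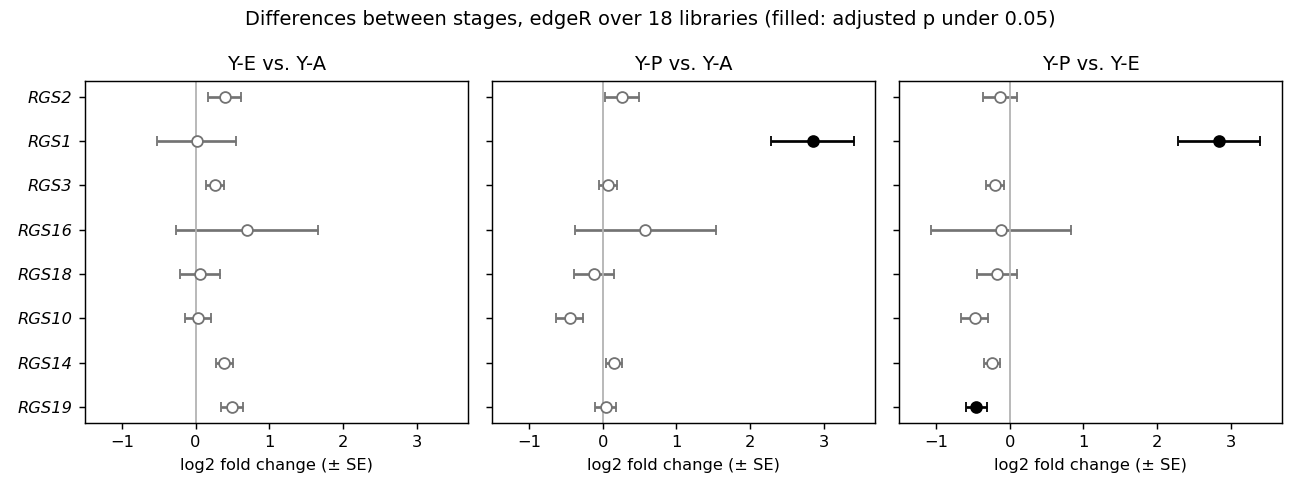
Log2 fold change (x axis, point ± SE) of the 8 members in the 3 comparisons, from edgeR over 18 libraries, with filled points for an adjusted p under 0.05. *RGS1* stands at 2.85 and 2.84 in the panels with pregnancy, *RGS19* is filled at −0.45 in Y-P vs. Y-E, and no point is filled in Y-E vs. Y-A.

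*RGS1*, a lymphocyte protein that dampens the response to chemokines, was low in anestrus and estrus and higher in pregnancy. Anestrus libraries held 5.07 to 14.0 CPM (median 7.63) and estrus libraries 4.65 to 12.2 CPM (median 9.05). The 6 Y-P libraries had 19.7, 132.7, 27.7, 13.1, 16.1 and 153.7 CPM in the order of their numbers, so that replicates 2 and 6 lay far above the other 4. Every Y-P library was above every Y-E library, though narrowly: the lowest Y-P value was 13.1 and the highest Y-E value 12.2 CPM. Across all tested genes, 6.03% had stages that did not overlap in this comparison. Against Y-A the stages overlapped, since the highest Y-A library at 14.0 CPM exceeded Y-P replicate 4, and 5 of 6 Y-P libraries were above all of Y-A. The shares of all genes whose stages did not overlap were 3.56% between pregnancy and anestrus and 0.303% between estrus and anestrus, and *RGS1* was the only member without overlap in any of the 3 comparisons.

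The fitted difference of *RGS1* was a log2 fold change of 2.85 ± 0.56 (SE) in Y-P vs. Y-A, with an adjusted p of 0.00784 in edgeR, and of 2.84 ± 0.56 in Y-P vs. Y-E, with an adjusted p of 0.00289. Without Y-E replicate 6 the values were 2.85 and 2.97. Most of this size came from Y-P replicates 2 and 6. Without both of them, a fit chosen after the values were seen, the log2 fold change was 1.19 (adjusted p = 0.0518 in edgeR) against Y-A and 1.18 (adjusted p = 0.0198) against Y-E. Between estrus and anestrus the log2 fold change was 0.01 ± 0.53, and −0.12 without Y-E replicate 6.

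**Figure D3:**
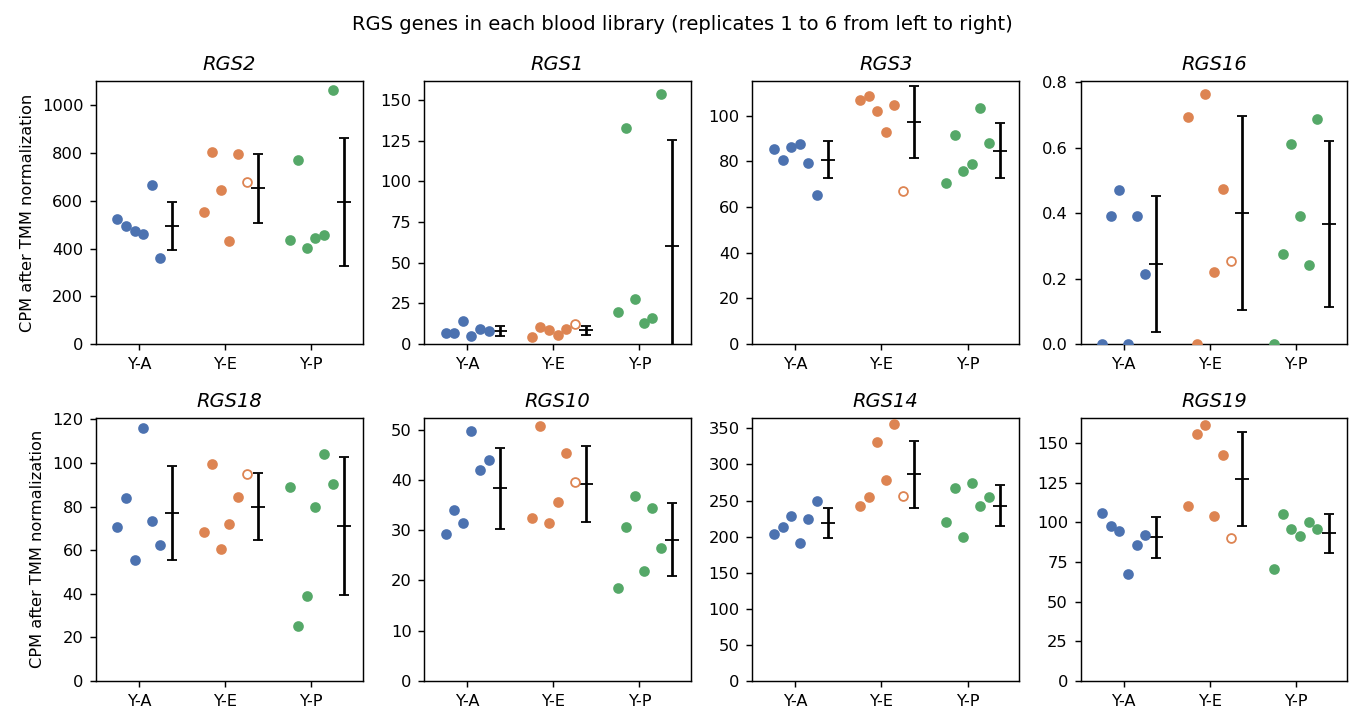
CPM after TMM normalization (y axis) of each member in the 18 libraries (x axis, stage, with replicates 1 to 6 from left to right), with the mean ± SD of the stage beside the points; the axis stops at 0, which clips the lower bar of *RGS1* in Y-P. The open circle is Y-E replicate 6, and *RGS1* in Y-P replicates 2 and 6 reaches 132.7 and 153.7 CPM while the other 4 Y-P libraries lie between 13.1 and 27.7.

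The genes whose log2 CPM followed *RGS1* most closely over the 18 libraries, of 10616 genes with a unique symbol, were *KIFC2* (Pearson r = 0.88, Spearman correlation = 0.78), *DUSP1* (r = 0.86, Spearman correlation = 0.49) and *FOS* (r = 0.86, Spearman correlation = 0.66). *KIFC2* encodes a kinesin motor, *DUSP1* a phosphatase of MAP kinases, and *FOS* a subunit of the AP-1 transcription factor. These correlations are descriptions over libraries that share stage differences. After the stage means were removed they were 0.73, 0.81 and 0.69. Without the 2 libraries farthest from the median of *RGS1* they were 0.68, 0.23 and 0.53, so the likeness of *DUSP1* rested on those libraries.

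*DUSP1* had 2078 CPM in Y-P replicate 2 and 1603 in replicate 6, against 273 to 440 CPM in the other Y-P libraries, 238 to 426 in Y-A and 281 to 419 in Y-E. *FOS* had 1076 and 448 CPM in the same 2 libraries, against 56.5 to 293 in the other Y-P libraries and at most 71.4 CPM in Y-A and 55.9 in Y-E. Both genes are early-response genes, which cells transcribe within minutes of a stimulus. *KIFC2* differed less, with 12.7 CPM in both libraries and at most 9.49 in the other Y-P libraries.

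**Figure D4:**
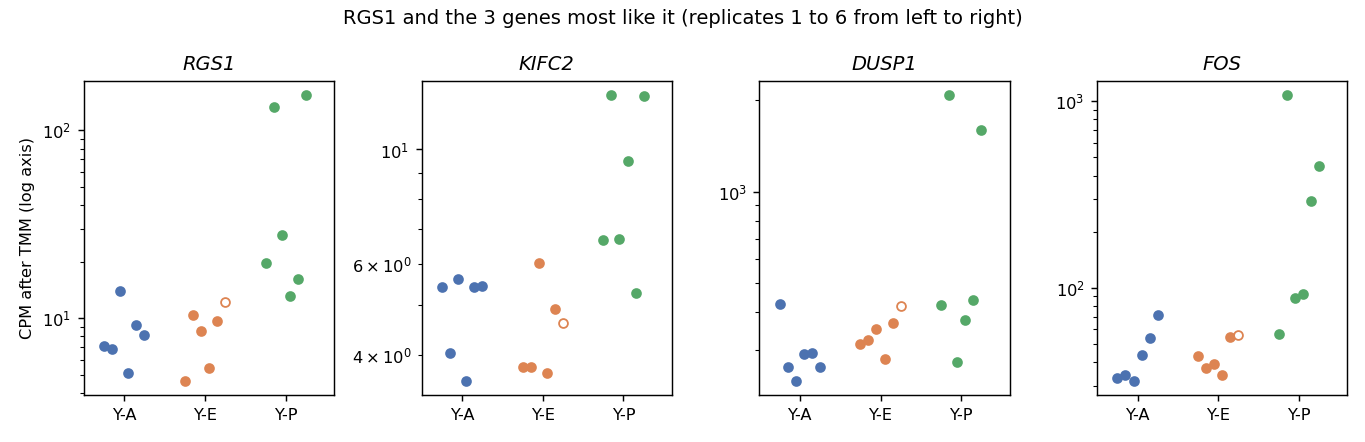
CPM after TMM normalization (log y axis) of *RGS1*, *KIFC2*, *DUSP1* and *FOS* in the 18 libraries (x axis, stage, replicates 1 to 6 from left to right, open circle for Y-E replicate 6). In all 4 panels the Y-P points at the places of replicates 2 and 6 are the highest of the 18.

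Of the 21 early-response genes on a list written for this comparison, all 21 were tested, and 0 passed in Y-E vs. Y-A. In Y-P vs. Y-A 4 rose and 0 fell, where 5.83% of all genes passed, and in Y-P vs. Y-E 4 rose and 2 fell, where 14.4% passed, and the counts were the same over 17 libraries. The median log2 fold changes of the list were 0.06, 0.20 and 0.19. When only the library size was used for scaling, 4 rose and 0 fell against Y-A (median 0.39). Against Y-E 5 rose and 0 fell under that scaling (median 0.32), so the 2 falls depended on the scaling. Without Y-P replicates 2 and 6, chosen after the values were seen, 1 gene rose and 0 fell against Y-A, 1 rose and 5 fell against Y-E, and the medians were −0.10 and −0.02. In pregnancy *FOS* rose by 2.94 on the log2 scale against Y-A (adjusted p = 0.00673) and by 2.96 against Y-E (adjusted p = 0.00211). *FOSB*, another AP-1 subunit, rose by 2.51 (adjusted p = 0.0172) and by 2.24 (adjusted p = 0.0126). *DUSP2* rose by 0.85 against Y-A (adjusted p = 0.0257), and *EGR1*, a zinc finger transcription factor, by 2.81 against Y-E (adjusted p = 0.0177). Without Y-P replicates 2 and 6, *FOS* still passed, with 1.57 against Y-A (adjusted p = 0.0353) and 1.60 against Y-E (adjusted p = 0.0114), while *FOSB*, *DUSP2* and *EGR1* did not (adjusted p 0.0946 to 0.266). Part of the list was high in Y-P replicates 2 and 6. Both exceeded every other Y-P library for *FOS*, *FOSB*, *JUN*, *JUNB*, *EGR1*, *EGR2*, *DUSP1*, *DUSP2*, *NR4A1*, *ATF3* and *CD69*. Of these, *NR4A1*, *ATF3* and *CD69* stayed inside the Y-A range. *JUNB* did not stand above the other stages either. It had 446 and 343 CPM, against 109 to 426 in Y-A and 353 to 538 in Y-E. The remaining listed genes were not above the other Y-P libraries in both. Among them, *EGR3* had 0.806 and 0.660 CPM against 0.564 to 2.0997 in the other Y-P libraries, and *IER5* 70.8 and 125 CPM against 61.5 to 134. Both were named after their values were seen. The T cell markers in Y-P replicates 2 and 6, at a summed 1606 and 1312 CPM, lay inside the Y-P range of 1103 to 1891. Their part in the level of *RGS1* was not tested.

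The levels of *RGS2* overlapped between the stages in every comparison. The anestrus libraries had 360 to 667 CPM (median 483), the estrus libraries 431 to 805 (median 663) and the pregnancy libraries 402 to 1064 (median 452). In pregnancy, replicates 2 and 6 were again the highest, at 771 and 1064 CPM, while the other 4 libraries lay close together between 402 and 458. The log2 fold change was 0.39 ± 0.23 between estrus and anestrus (0.38 without Y-E replicate 6) and 0.26 ± 0.23 between pregnancy and anestrus. The latter was 0.02 when Y-P replicate 6 was left out and −0.19 when replicate 2 was left out as well. Between pregnancy and estrus it was −0.13 ± 0.23 (−0.12 without Y-E replicate 6), and it was 0.03 when only the library size was used for scaling. None passed the test. Without Y-P replicates 2 and 6, a choice made after the values were seen, *RGS2* was lower in Y-P than in Y-E, with a log2 fold change of −0.58 (adjusted p = 0.0418 in edgeR).

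*RGS1* and *RGS2* had a Pearson r of 0.48 over the 18 libraries (Spearman correlation = 0.16) and of 0.79 after the stage means were removed. Y-P replicates 2 and 6 were the highest Y-P libraries for both genes, and no value without them was computed. The gene most like *RGS2* was *KLF6*, a zinc finger transcription factor, with r = 0.87 and Spearman correlation = 0.79. Its r was 0.89 without the 2 farthest libraries. *TMEM164* was also among the genes most like it, with r = 0.74.

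*RGS3*, an R4 member whose longer forms also bind the beta and gamma subunits, was slightly higher in most estrus libraries. At anestrus it had 65.3 to 87.5 CPM (median 83.1), at estrus 67.0 to 109 (median 103) and at pregnancy 70.4 to 103 (median 83.3). Of the 6 Y-E libraries, 5 were above all of Y-A, and replicate 6 was the exception with 67.0 CPM. Between estrus and anestrus the log2 fold change was 0.26 ± 0.12 (adjusted p = 0.774 in edgeR), and it was 0.35 (adjusted p = 0.213) without that library. It was 0.07 ± 0.12 between pregnancy and anestrus and −0.20 ± 0.12 between pregnancy and estrus, or −0.28 (adjusted p = 0.0823) without Y-E replicate 6. The scaling bears on these values: limma on log2(FPKM + 1) gave 0.25 and −0.0018, and library size only gave 0.22 and −0.06. The genes most like *RGS3* were *ANXA11* (r = 0.83), *ARHGAP9* (r = 0.82) and *CDIPT* (r = 0.81), which encode an annexin, a GTPase-activating protein and phosphatidylinositol synthase.

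*RGS16*, a small R4 protein, was hardly detected. The highest library of each stage had 0.472 CPM (Y-A), 0.766 CPM (Y-E) and 0.687 CPM (Y-P), with 27 counts at most in any library. In 4 of the 18 libraries, 2 of Y-A and 1 each of Y-E and Y-P, it had 0 counts, which allows up to 3 counts, or 0.0604 to 0.107 CPM depending on the library, for counting error only. The log2 fold changes of 0.70 ± 0.96 (estrus against anestrus), 0.58 ± 0.96 (pregnancy against anestrus) and −0.12 ± 0.95 (pregnancy against estrus) did not exceed their errors, and a difference was not detectable at this depth. Without Y-E replicate 6 the differences against Y-E were 0.80 and −0.22. The genes most like it were *EML6* (r = 0.86), *MTMR11* (r = 0.79) and *GUCY2C* (r = 0.79), and such correlations between sparse counts are weak ground.

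*RGS18*, an R4 member known from platelets and their precursors, showed no difference between stages that exceeded its error. The range was 55.5 to 116 CPM at anestrus (median 72.0), 60.6 to 99.4 at estrus (median 78.4) and 25.2 to 104 at pregnancy (median 84.3). Y-P replicates 2 and 3, at 25.2 and 38.7 CPM, were below every library of the other stages, while the remaining Y-P libraries lay between 79.6 and 104. The log2 fold change was 0.05 ± 0.27 between estrus and anestrus, −0.11 ± 0.27 between pregnancy and anestrus and −0.17 ± 0.27 between pregnancy and estrus. Without Y-E replicate 6 the first was −0.00041 and the last −0.11.

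The platelet markers were lower in pregnancy. Of 12 listed platelet markers 8 were in the table, with *GP1BB* at or under 3 counts in every library, and *PPBP*, *PF4*, *GP9* and *GP6* were not analysed here. The sum of their CPM was 287 to 375 at anestrus, 241 to 398 at estrus and 155 to 210.1 at pregnancy. In each comparison with pregnancy 3 of 7 tested markers fell, where 5.83% of all genes passed against Y-A and 14.4% against Y-E. The part of platelets in the level of *RGS18* was not tested. The genes most like *RGS18* were *PPP2R2A* (r = 0.93, Spearman correlation = 0.86), a regulatory subunit of protein phosphatase 2A, *ADAM10* (r = 0.91, Spearman correlation = 0.73), a membrane protease, and *EAPP* (r = 0.89, Spearman correlation = 0.86). Without the 2 libraries farthest from the median of *RGS18*, r was 0.80, 0.60 and 0.79.

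*RGS10*, a small R12 protein that acts on alpha subunits of the Gi class, had its lowest levels in pregnancy. Libraries of Y-A had 29.2 to 49.8 CPM (median 37.98), those of Y-E 31.4 to 50.8 (median 37.7) and those of Y-P 18.4 to 36.9 (median 28.6). The stages overlapped, with 3 of 6 Y-P libraries below all of Y-A and 4 of 6 below all of Y-E. The log2 fold change was 0.03 ± 0.18 in Y-E vs. Y-A, and also 0.03 without Y-E replicate 6. In Y-P vs. Y-A it was −0.45 ± 0.18 (adjusted p = 0.142 in edgeR), and in Y-P vs. Y-E −0.48 ± 0.18 (adjusted p = 0.0799, and 0.108 without Y-E replicate 6), so neither passed. The latter passed narrowly in DESeq2 (−0.49, adjusted p = 0.0457) and with the replicate number as a block (−0.49, adjusted p = 0.0492), and with the block but without Y-E replicate 6 it did not (adjusted p = 0.0764). *TMEM116* (r = 0.87), *MTRF1* (r = 0.86), a mitochondrial release factor, and *KMO* (r = 0.85), an enzyme of tryptophan breakdown, were most like it.

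*RGS14*, an R12 scaffold that also binds Rap and Ras GTPases, resembled *RGS3* and *RGS19* in its stage order. It had 191 to 249.95 CPM at anestrus (median 219), 243 to 357 at estrus (median 267) and 199 to 275 at pregnancy (median 249). Of the 6 Y-E libraries 5 were above all of Y-A. The log2 fold change in Y-E vs. Y-A was 0.39 ± 0.11 (adjusted p = 0.381 in edgeR) and 0.42 (adjusted p = 0.173) without Y-E replicate 6. It was 0.15 ± 0.11 in Y-P vs. Y-A and −0.24 ± 0.11 (adjusted p = 0.166) in Y-P vs. Y-E, or −0.27 (adjusted p = 0.142) without Y-E replicate 6. With limma on log2(FPKM + 1) these were 0.35 and −0.04. The genes most like it were *ARHGAP45* (r = 0.84), *FAM102A* (r = 0.81) and *DGKZ* (r = 0.80), the first a GTPase-activating protein and the last a diacylglycerol kinase. Without the 2 libraries farthest from the median of *RGS14*, r was 0.77, 0.72 and 0.67.

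*RGS19*, the RZ member that binds Gi-class alpha subunits, was highest in estrus and was lower in pregnancy than in estrus. Its level was 67.5 to 106 CPM during anestrus (median 93.2), 90.1 to 161 during estrus (median 126) and 70.4 to 105 during pregnancy (median 95.7). Y-E replicates 2, 3 and 5 stood at 156, 161 and 142 CPM, and the other 3 Y-E libraries lay between 90.1 and 110. In Y-P vs. Y-E the log2 fold change was −0.45 ± 0.15 (adjusted p = 0.0450 in edgeR), with 4 of 6 Y-E libraries above every Y-P library, and it was −0.53 (adjusted p = 0.0174) without Y-E replicate 6. This call sat at the threshold: leaving out any of 12 single libraries, named in the closing section, took the adjusted p over it, to at most 0.115. It was also lost with library size only (−0.30, adjusted p = 0.142).

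In Y-E vs. Y-A the log2 fold change of *RGS19* was 0.49 ± 0.15 (adjusted p = 0.421 in edgeR) and 0.57 (adjusted p = 0.104) without Y-E replicate 6. In Y-P vs. Y-A it was 0.04 ± 0.15. *RGS19* was most like *C16orf54* (r = 0.89), *RHOG* (r = 0.88) and *ARHGAP9* (r = 0.88), of which *RHOG* encodes a small GTPase of leukocytes and *ARHGAP9* was also among the genes most like *RGS3*. Among the members, *RGS19* had an r of 0.68 with *RGS14* (Spearman correlation = 0.48) and of 0.68 with *RGS3* (Spearman correlation = 0.77). After the stage means were removed, r was lower, at 0.47 with *RGS14* and 0.55 with *RGS3*.

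Neutrophil markers had their highest median in estrus, as did *RGS2*, *RGS3*, *RGS14* and *RGS19*. Of 10 listed neutrophil markers 6 were in the table, none of them at 0. Their summed CPM was 3687 to 9321 during anestrus (median 5311), 4741 to 12558 during estrus (median 10094) and 2685 to 5976 during pregnancy (median 3481). Replicate 6 of Y-E had the lowest sum of its stage, 4741 against 7251 to 12558 in the other Y-E libraries, and the lowest *RGS3* and *RGS19* of its stage, but with 256 CPM it did not have the lowest *RGS14*, nor with 680.1 CPM the lowest *RGS2*. Y-A replicate 5 had the highest sum of its stage, 9321 CPM. Its *RGS3* of 79.5 and *RGS19* of 85.7 CPM were below the Y-A medians of 83.1 and 93.2. Its *RGS14* of 224 CPM was above the Y-A median of 219, and its *RGS2* of 667 CPM was the highest of Y-A. In Y-P vs. Y-E 5 of 6 markers fell, where 14.4% of all genes passed, and in the other comparisons 0 of 6 passed. The part of neutrophil numbers in the levels of these genes was not tested.

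**Figure D5:**
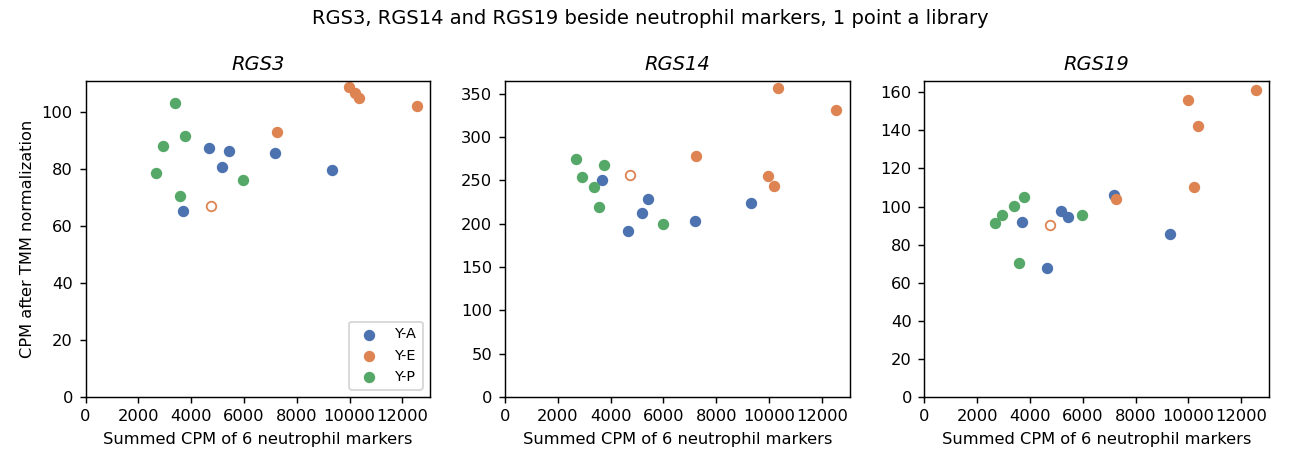
CPM after TMM normalization of *RGS3*, *RGS14* and *RGS19* (y axis) against the summed CPM of 6 neutrophil markers (x axis), 1 point a library, colored by stage. The Y-E libraries other than replicate 6 (open circle) lie between 7251 and 12558 on the x axis. Y-A replicate 5 lies among them at 9321 and Y-A replicate 1 beside them at 7184. Y-E replicate 6 lies among the Y-A and Y-P libraries at 4741.

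The other marker lists were tested in the same fit. Of 6 T cell markers, 2 rose between anestrus and pregnancy (5.83% of all genes passed) and 3 between estrus and pregnancy (14.4%). Of the 6 reticulocyte markers 4 fell in each comparison with pregnancy, beside the same shares of all genes. Of the 8 B cell, 6 NK cell, 6 monocyte and 6 eosinophil and basophil markers, 0 passed in any comparison in edgeR.

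Among the other RGS genes, only *RGS6*, *RGS9* and *RGS11* passed the low-count filter, of 9 in the table and 13 listed. *RGS9*, best known from photoreceptors and brain, was the only gene of these well above the floor. It had 27.2 to 72.3 CPM at anestrus, 44.8 to 85.8 at estrus and 54.0 to 107 at pregnancy, and its log2 fold change was 0.28 ± 0.21, 0.70 ± 0.21 (adjusted p = 0.0586 in Y-P vs. Y-A, edgeR) and 0.42 ± 0.21 in the 3 comparisons. *RGS6* and *RGS11* did not exceed 2.56 and 1.33 CPM. None of the 3 passed the test. With library size only, 1 of the 3 rose in Y-P vs. Y-A, and 0 passed in the other comparisons.

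The partners of RGS proteins were compared from lists of the pathway, beside the 5.83% of all genes that passed in Y-P vs. Y-A and the 14.4% in Y-P vs. Y-E. With lists of 6 to 25 genes, a few genes decide each share, and nothing particular to a list is read from these counts. Over 17 libraries the counts below changed only in Y-P vs. Y-E, where 1 of 6 receptor kinases and arrestins fell (*GRK3* was lost, adjusted p = 0.0618) and 1 receptor rose and 3 fell. Of 14 tested alpha subunits, the direct targets, 0 passed between estrus and anestrus, while 2 fell from anestrus to pregnancy and 3 from estrus to pregnancy, with median log2 fold changes of 0.14, −0.18 and −0.40. *GNAI2*, the main Gi-class alpha subunit of leukocytes, fell by 0.47 on the log2 scale in Y-P vs. Y-E (adjusted p = 0.0141), from 1035 ± 169 to 746 ± 57.3 CPM (SD, n = 6 libraries). *GNA15*, a Gq-class subunit of blood cells, fell by 0.64 (adjusted p = 0.00488). *GNA11*, also of the Gq class, fell by 0.57 (adjusted p = 0.0162) against Y-A and fell by 0.56 (adjusted p = 0.00700) against Y-E, and *GNAQ* fell by 0.75 (adjusted p = 0.0230) against Y-A. With library size only, *GNA11* no longer passed against Y-A (adjusted p = 0.0686), and the list's medians in the comparisons with pregnancy were 0.0028 and −0.25.

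Of 7 tested beta and gamma subunits, 2 fell in Y-P vs. Y-A (5.83% of all genes passed) and 3 in Y-P vs. Y-E (14.4%), and 0 rose. *GNG7* fell by 0.89 (adjusted p = 0.00669) and fell by 1.27 (adjusted p = 0.000271), and *GNG11*, a subunit abundant in platelets, fell by 1.16 (adjusted p = 0.00859) and fell by 0.95 (adjusted p = 0.0104). *GNB2* fell by 0.47 (adjusted p = 0.0397) in Y-P vs. Y-E. Without Y-P replicates 2 and 6, *GNG11* against Y-A and *GNB2* no longer passed (adjusted p = 0.0505 and 0.0786). *GNB2* was also lost with library size only (adjusted p = 0.115 in edgeR). Platelet markers were lower in the same comparisons, as given above, and their part in the level of *GNG11* was not tested.

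Receptor kinases and arrestins mark active receptors for removal. Of 6 tested, 1 rose and 1 fell in Y-P vs. Y-A (5.83% of all genes passed), and 2 fell in Y-P vs. Y-E (14.4%). Without Y-P replicates 2 and 6, 0 passed against Y-A and 1 fell against Y-E. *GRK3* fell by 0.66 (adjusted p = 0.0290) and fell by 0.55 (adjusted p = 0.0338), *ARRB2* fell by 0.53 (adjusted p = 0.0173) in Y-P vs. Y-E, and *GRK4* rose by 0.78 (adjusted p = 0.0410) in Y-P vs. Y-A. *GRK3* passed in neither comparison with library size only (adjusted p = 0.0674 and 0.112 in edgeR). Nor did it pass without Y-P replicates 2 and 6 (adjusted p = 0.117 and 0.141 in edgeR). The median log2 fold changes of the list were 0.07, −0.05 and −0.08.

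Of 25 leukocyte receptors of the G protein-coupled class, 2 rose and 1 fell in Y-P vs. Y-A (5.83% of all genes passed), and 2 rose and 4 fell in Y-P vs. Y-E (14.4%). Without Y-P replicates 2 and 6, 0 rose and 1 fell against Y-A, with *LPAR6* and *CCR7* lost (adjusted p = 0.0535 and 0.0608), and 3 rose and 2 fell against Y-E. *P2RY13*, a receptor for ADP, fell by 1.32 (adjusted p = 0.00450) and fell by 1.57 (adjusted p = 0.000466). The complement receptor *C5AR1*, a neutrophil chemoattractant receptor, fell by 0.61 (adjusted p = 0.00785) in Y-P vs. Y-E, in which the neutrophil markers also fell. *LPAR6*, a receptor for lysophosphatidic acid, rose by 0.68 (adjusted p = 0.0307) and 0.69 (adjusted p = 0.0139). *CCR7*, which guides naive T cells to lymph nodes, rose by 0.47 (adjusted p = 0.0445) in Y-P vs. Y-A. No receptor passed in Y-E vs. Y-A in edgeR.

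Of 15 tested effectors of G proteins, 1 fell in Y-P vs. Y-A (5.83% of all genes passed), 3 fell in Y-P vs. Y-E (14.4%) and 0 rose. With library size only, 2 rose and 1 fell against Y-A and 2 fell against Y-E. *PIK3CG*, a phosphoinositide kinase switched on by beta and gamma subunits, fell by 0.73 (adjusted p = 0.00199) in Y-P vs. Y-E. *ARHGEF11*, a guanine nucleotide exchange factor with an RGS-like domain, fell by 0.67 (adjusted p = 0.00590) there. The adenylate cyclase *ADCY9* fell by 0.78 (adjusted p = 0.0146) against Y-A and fell by 0.65 (adjusted p = 0.0162) against Y-E. With library size only, *ADCY9* did not pass against Y-E (−0.49, adjusted p = 0.0514 in edgeR). The median log2 fold changes of the effectors were −0.07, −0.31 and −0.18, beside −0.01, 0.03 and 0.04 over all genes.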

How the data were processed

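RNA-seq of yak whole blood gave 18 libraries, 6 for each of 3 stages. According to the study's methods and the submitters' processing notes, reads were trimmed with cutadapt 1.9, aligned with HISAT2 2.2.1 and assembled with StringTie 2.1.6. The libraries were stranded (dUTP) and made from mRNA taken up with oligo(dT). The authors deposited FPKM values, scaled by transcript length and mapped reads, and whole-number counts that were not normalized. How the counts were made is not given in the sources used here, and the processing notes also name DESeq2 and edgeR without a role. Samples were grouped by title.

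All genes were tested by identifier on the deposited counts in R 4.3.3 with edgeR 4.0.16 (TMM, filterByExpr, two-sided quasi-likelihood test, stage as the only factor, all 18 libraries in 1 fit), with Benjamini-Hochberg adjustment within each comparison. The script was tested on simulated data. Nothing states that the libraries of a stage came from separate cows, beyond the 6 cows tracked, so p-values measure the spread between these libraries. Alternatives used DESeq2 1.42.0, limma 3.58.1 on log2(FPKM + 1) and log2(FPKM + 0.1), other scaling, no filter, the replicate block and leaving out libraries. Python 3.11.15 (scipy 1.17.1, numpy 2.4.6 and pandas 2.3.3) served for levels and correlations, and matplotlib 3.10.9 for the figures. A count of 3 was the floor.

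The members, gene lists and tests were chosen with earlier results of these data known. The genes named are all 8 members, for each the 3 genes with a symbol and the highest Pearson correlation of log2 CPM, and from each list up to 3 genes that passed with the smallest adjusted p in a comparison. Of the genes most like a member, 1 is not reported here. *DUSP1* and *FOS* are also on the early-response list.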

Additional observations from a re-analysis of the deposited data

Results flagged for a closer look

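Each member's CPM was searched in each stage for a library far from the other 5, by the ratio of its gap to the range (Dixon's criterion at 95%), which chance meets in about 1 of 20 groups. The gap is to the nearest library, so the search can miss 2 libraries that lie far out together. *RGS1* in Y-P replicates 2 and 6 (132.7 and 153.7 CPM) did not meet it. Of 24 groups of 6 libraries, 1 met it: *RGS3* in Y-A, where replicate 6 had 65.3 CPM, the next library 79.5 and the highest 87.5, so that the gap was 0.64 of the range. The same library had the lowest neutrophil marker sum of Y-A, 3687 CPM. It also had the highest reticulocyte marker sum, 10695 CPM against 577 to 2247 in the other Y-A libraries. The part of either in its *RGS3* level was not tested.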

How the results depend on the processing

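Of 672 refitted log2 fold changes (24 results under 28 settings), 650 stayed on their side of the threshold, 3 came to pass it, 19 no longer passed and 0 called values changed sign, while 10 of the results that did not pass took the other sign under some setting. In Y-P vs. Y-E the count of members passing was 1 in place of 2 with library size only, without the low-count filter, with limma at either pseudocount and with only the 2 stages fitted; in each case *RGS19* was lost (adjusted p 0.142, 0.0642, 0.195, 0.202 and 0.0761). Leaving out 1 library gave counts of 0 to 0 in Y-E vs. Y-A, 1 to 1 in Y-P vs. Y-A and 1 to 2 in Y-P vs. Y-E. *RGS19* lost its call without Y-A replicate 2, 3, 5 or 6, Y-E replicate 2, 3 or 5, or Y-P replicate 1, 3, 4, 5 or 6 (log2 fold change −0.53 to −0.37 over the 18 fits), while *RGS1* passed in 18 of 18 fits in both comparisons with Y-P. Without both Y-P replicates 2 and 6, chosen after seeing the data, the count in Y-P vs. Y-A was 0, and *RGS19* had an adjusted p of 0.0648 in Y-P vs. Y-E. The causes were not tested. Library size only moved the median of all genes by 0.16 in Y-P vs. Y-A and 0.14 in Y-P vs. Y-E; limma on log2(FPKM + 0.1) moved it by 0.19 and 0.17.

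With the replicate number as a block, 3 members passed in Y-P vs. Y-E (*RGS10* added) and 2 did without Y-E replicate 6; *RGS1* had a log2 fold change of 2.27 against Y-A and 2.38 against Y-E, and no other call of a member changed. Libraries of equal number deviated together (r over 0.1) in 6 of 6 pairs of Y-E and Y-A (r 0.11 to 0.515). In both other comparisons 4 of 6 pairs did (r −0.0492 to 0.369 for Y-P and Y-A, −0.0544 to 0.4 for Y-P and Y-E). Libraries of unequal number were not compared, so this check cannot decide whether equal numbers mark the same cow. As the labels and methods do not say so, the block was kept as an alternative only. Depth limits *RGS16*, with at most 27 counts.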
